A study of Mus musculus with 6 samples.

Results

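Gm11168 and Gm10717 are predicted mouse genes annotated at the start of chromosome 9, and every listed variant site that carried either name was collected from lists of variants of 3 mice. A site was taken when any of its annotations, other than intergenic, named 1 of these 2 genes. This gave 39 of the 177834 distinct sites in the 6 lists of all variants, 17 at Gm11168 and 22 at Gm10717, with no site annotated to both. The sites were listed 71 times in all, out of 309754 calls. The genes had been chosen by measured values of the calls that carry their names in these same lists and in the somatic lists. Which values weighed in the choice is not recorded, so mapping quality, allele fractions, repeated calls and somatic calls are given as a description, without a test, and only marrow and ear are compared by tests.

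The prefix Gm marks a gene model that has been predicted and has no known function. Mouse chromosomes carry their centromere at the end where positions begin, and arrays of satellite DNA, short units repeated in tandem, lie around it. A sequencing read from such a repeat fits many places equally well, so an aligner gives it a low mapping quality, the Phred-scaled chance that it was put in the wrong place. Copies of a repeat that the reference holds only once or not at all pile up on the copy that is there.

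DNA came from whole bone marrow and from ear of animals 54 and 108, both male, and 136, female, all on the C57BL/6 strain. The labels give every sample Srsf2 P95H, a change in a splicing factor that is mutated in human myeloid neoplasms. Whether the DNA of each sample holds the change was not checked here. All mice had been given tamoxifen, which switches on the Cre recombinase fused to a mutant oestrogen receptor. The labels give an age of 50 to 60 weeks, and the protocol text counts the same span from tamoxifen to the time when the mice had become moribund. The labels name R26CreERT2, a widely active driver, in all animals, whereas the design text gives 1 of the 3 an hScl-CreERT driver with R26eYFP and does not say which. No animal without Srsf2 P95H or without tamoxifen was analysed here, so no value below says anything about either. Ear DNA is the matched reference of the marrow of the same animal, and both are mixtures of many cell types. Exons had been captured with a 50 Mb kit, and the protocol states a mean coverage of 100 reads. The median depth at coding sites ran from 52 reads in the ear of animal 136 to 117.5 in the ear of animal 54, and the lists held from 24915 to 79759 sites.

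The annotation distances place 4 transcripts of Gm11168 (ENSMUSG00000096385), the first starting at position 3003346 of chromosome 9. The transcript that starts last begins at 3005159, and its end could not be read from the distances. Gm10717 (ENSMUSG00000095891) has 9 transcripts between 3025417 and 3033289. Both are marked protein coding, with coding lengths of 672 to 684 bases in Gm11168 and 639 to 684 bases in Gm10717. The annotation carries a warning on every one of these transcripts. All 4 of Gm11168 and 6 of the 9 of Gm10717 lack a stop codon, and the other 3 lack a start codon. Position 3000635, the first site of Gm11168, was also the first listed position on chromosome 9. Member sites spread over 37.4 kb and were followed by 96.6 kb without a listed site. No sequence of the 2 genes was used here, so the name satellite-like was not checked. Position, mapping quality and depth describe the sites. Measured values of these calls may have led to the choice of the genes, so they cannot check the name.

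Of the 39 sites, 33 lay only upstream or downstream of a transcript. The other 6 fell in coding sequence. In Gm11168 these were p.Asn6His at 3004472, p.Ser184Ser at 3004775, which also touches a splice region, p.Tyr121Phe at 3004822 and p.Asn211Lys at 3006909. In Gm10717 they were p.Val153Leu at 3025873 and p.Pro121Pro at 3027685. Predicted genes overlap along the whole stretch. All 17 sites of Gm11168 were also annotated to Gm10722 and Gm26870, and a member gene stood first in the annotation of only 40 of the 71 calls. A call here is therefore a call at a position with several gene names, and it cannot be assigned to 1 of them.

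The number of member sites in a list was small and uneven. Animal 54 had 10 in marrow and 6 in ear, animal 108 had 15 and 15, and animal 136 had 16 and 9. Of these, Gm11168 had 4 and 4 for animal 54, 5 and 5 for animal 108, and 7 and 4 for animal 136. Gm10717 had 6 and 2, 10 and 10, and 9 and 5 in the same order. In animals 54 and 136 marrow held more member sites, and in animal 108 both tissues held as many. The whole lists held 43259 (marrow) and 67945 (ear) sites for animal 54. They held 79759 and 67274 for animal 108, and 26602 and 24915 for animal 136. On the log2 scale, member sites in marrow over ear averaged 0.52 ± 0.45 (SD, n = 3 animals), without scaling by list size. A two-sided exact sign-flip permutation test over animals gave p = 0.5. With 3 pairs such a test cannot give a p under 0.25, which holds for each comparison of tissues here.

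**Figure D1:**
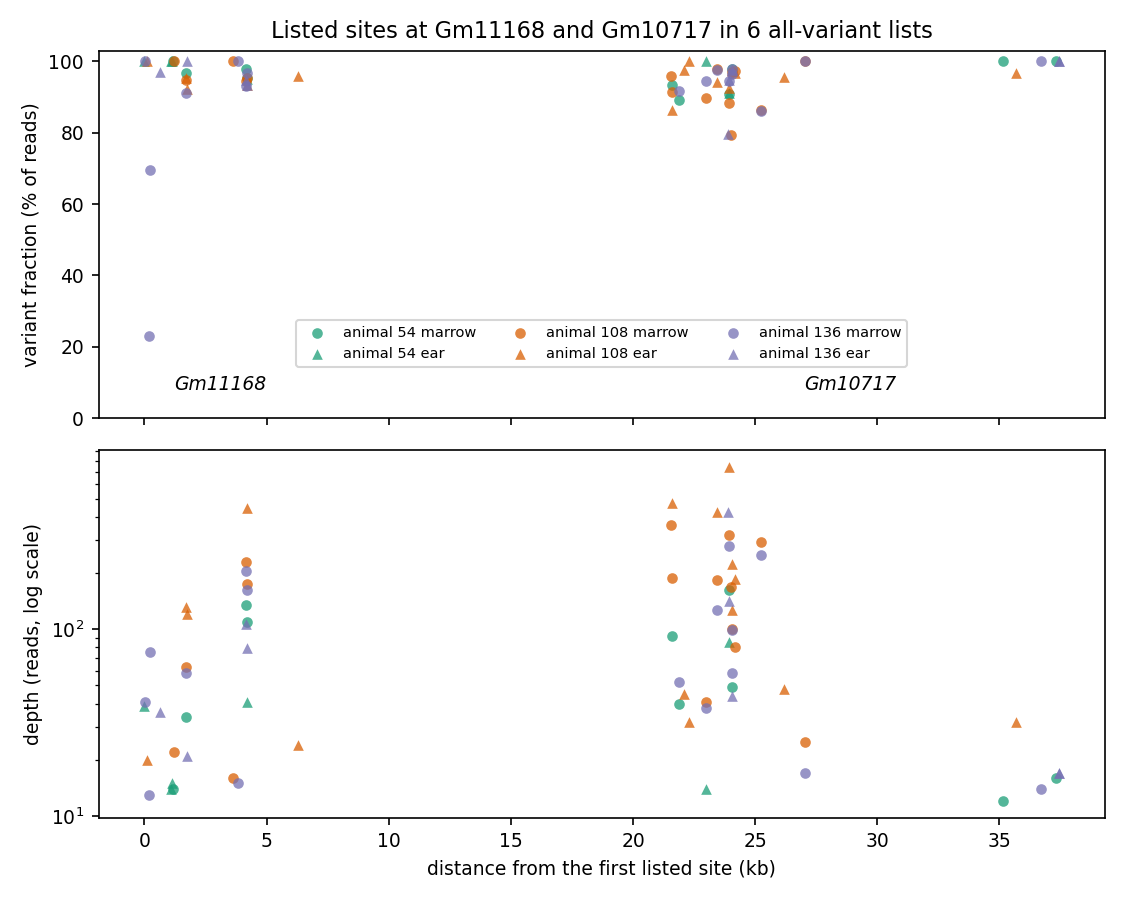
Each point is 1 listed site in 1 of 6 lists, placed by its distance in kb from the first listed site; the upper panel gives the variant fraction in percent of reads and the lower panel the depth in reads on a log scale, with circles for marrow, triangles for ear and a colour for each animal. Sites of Gm11168 lie on the left and those of Gm10717 on the right; 61 of 71 fractions are at 90% or above, while depth runs from 12 to 740 reads.

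The reads behind the member sites were placed with little certainty. The lists give a root-mean-square mapping quality over the reads at each site. It lay between 2 and 12 at member sites, with medians of 2 to 5 per list, against medians of 40 to 41 over all sites of the same lists. It was under 10 at 70 of the 71 member calls, against 0.24% of all calls, and these 70 made up 9.41% of the 744 calls of such low quality. The other call, with a quality of 12, was at 3000828 in the marrow of animal 136. The median over member sites was 2.5 (marrow) and 5 (ear) for animal 54, 3 and 2 for animal 108, and 2.5 and 2 for animal 136. Marrow differed from ear by -0.33 ± 1.89 units on average (SD, n = 3; p = 1, exact sign-flip permutation test). The direction was not shared, with marrow lower in animal 54 and higher in the other animals, and without animal 54 the mean was 0.75.

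Nearly all reads at most of the listed member sites carried the variant base. This describes listed sites only. VarScan2 also called mixed positions in the same stretch, given below, and most of these stood in no list of all variants. The variant fraction is the number of reads with the variant allele over the reads of both alleles. Its median over member sites was 97.3% (marrow) and 100% (ear) for animal 54, 95.4% and 95.8% for animal 108, and 95.4% and 97.1% for animal 136. Over all sites of the same lists the medians were 33.3% to 44.3%. No reference read was left at 19 of the 71 calls. How often this, or a fraction of at least 90%, occurs over all calls was not computed. SAMtools also fits an allele frequency to each site from the reads and their qualities, and it was 1 at all 71 member calls, against 4.39% of all calls.

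The fitted frequency hid lower fractions at a few sites. At 3000828, a C-to-A change upstream of Gm11168 in the marrow of animal 136, only 3 of 13 reads had the variant, or 23.1% (95% Clopper-Pearson interval 5.04 to 53.8). At 3000882 in the same marrow the fraction was 69.4% of reads, at a depth of 76. At 3024527 in the ear of animal 136 it was 79.5%, and at 3024633 in the marrow of animal 108 it was 79.4%, both near Gm10717 and with depths of 425 and 169 reads. Each of these 4 sites was listed in 1 of the 6 lists only. Intervals of this kind cover counting error alone, since no molecular identifiers tell copies of a molecule from separate molecules.

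The changes themselves had an uneven make-up. All 39 were single nucleotide changes, whereas 14.4% of all distinct sites were insertions or deletions. T-to-A or A-to-T changes made up 14 of the 39, or 35.9%, against 8.59% of all distinct single nucleotide sites. At 64 of 71 calls most reads lay on the reverse strand, against 48.2% of all calls. Neighbouring sites can lie on the same reads and were not counted as independent.

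Repeated calls were concentrated at a few positions. Of the 39 sites, 25 stood in 1 list, 6 in 2, 3 in 3, 2 in 4, 1 in 5 and 2 in all 6. Sites in 1 list made up 64.1% of the member sites, against 51.1% of all distinct sites. For sites in 2 lists it was 15.4% against 38.1%. The share in all 6 lists was 5.13%, which rests on 2 sites, against 2.63% of all distinct sites. Counted by animal, 26 sites were found in 1 animal, 7 in 2 and 6 in all 3. The last was 15.4% of the member sites, against 6.19% of all sites.

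**Figure D2:**
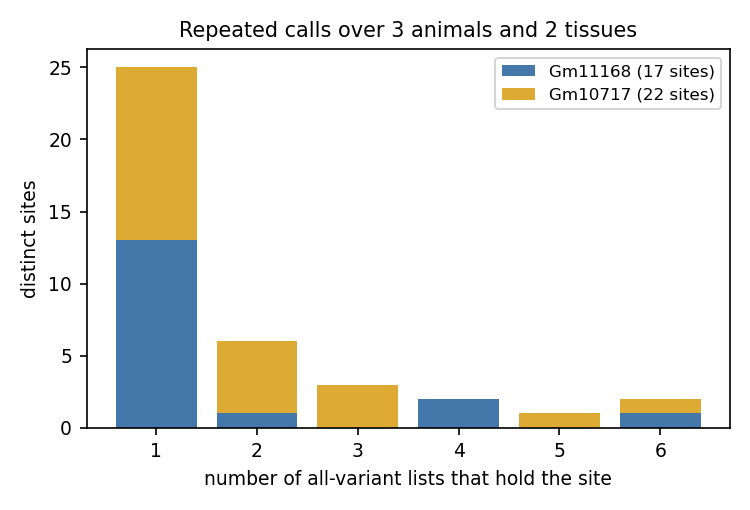
Bars give the number of distinct sites (vertical axis) found in 1 to 6 of the lists of all variants (horizontal axis), with Gm11168 in blue and Gm10717 in yellow. Sites in 1 list are the tallest bar, at 25 of 39, and each gene has 1 site that all 6 lists hold.

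The site of Gm11168 in all 6 lists was 3004822, an A-to-T change read as p.Tyr121Phe in 1 transcript. Its variant fraction was 95.4% (marrow) and 95% (ear) for animal 54, 95.4% and 93.4% for animal 108, and 96.9% and 93.5% for animal 136. Depth was 109 and 41 reads, 175 and 445 reads, and 162 and 79 reads in the same order, with a mapping quality of 2 throughout. Marrow was higher in all 3 animals, by 1.91 ± 1.51 percentage points (SD, n = 3; p = 0.25, exact sign-flip permutation test, the smallest 3 pairs can give).

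The site of Gm10717 in all 6 lists was 3024566, a T-to-A change upstream of the first transcript. Its variant fraction was 90.9% (marrow) and 91.1% (ear) for animal 54, 88.5% and 92.6% for animal 108, and 94.4% and 94.9% for animal 136. Depth was 163 and 85 reads, 322 and 740 reads, and 281 and 141 reads, and mapping quality was 5 or 6. Here marrow was lower in all 3 animals, by a mean difference of -1.60 ± 2.17 percentage points (SD, n = 3; p = 0.25, exact sign-flip permutation test). The sites in all 6 lists thus had tissue differences of opposite sign, each of a few points at most on average.

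Other repeated sites also had high fractions. At 3024671, an A-to-T change near Gm10717 in 5 lists, the fraction lay between 96.9% and 98.0% at depths of 44 to 223 reads. It was missing only from the ear list of animal 54. At 3002345, a C-to-T change upstream of Gm11168 in 4 lists, it lay between 91.2% and 96.9%. At 3004775, the p.Ser184Ser site, also in 4 lists, it lay between 93.2% and 97.7%, at depths of 107 to 230 reads. The p.Val153Leu site of Gm10717 at 3025873 stood in the marrow lists of animals 108 and 136 only, with 86.4% and 86.1% of reads at depths of 292 and 250.

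Repeated sites were deeper by the median, though the ranges overlapped widely. Calls at sites in 1 list had a median depth of 22 reads (range 12 to 425), and calls at sites in 2 or more lists had a median of 115 reads (range 14 to 740). The lowest depth in any of the lists was 11 reads, and a list gives no depth where nothing was called. A site that is missing from a list therefore need not lack the variant. At 3023631 the VarScan2 table counts 73 variant reads of 97 in the ear of animal 108, yet that ear's list does not hold the site.

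The tissues of an animal shared a smaller part of their member sites than of all their sites. Animal 54 had 2 member sites in both tissues, which was 20% of those in marrow and 33.3% of those in ear, against 75.7% and 48.2% of all sites. Animal 108 had 7, or 46.7% of each list, against 62.7% and 74.3%. Animal 136 had 4, or 25.0% and 44.4%, against 44.2% and 47.2%. All 6 shares of the member sites were the lower ones, the last by a small margin. Between the marrows of different animals the order was turned. Animals 54 and 108 shared 6 member sites, or 60.0% and 40.0%, against 21.7% and 11.8% of all sites. Animals 54 and 136 shared 6, or 60.0% and 37.5% against 17.8% and 28.9%. Animals 108 and 136 shared 9, or 60.0% and 56.2% against 16.5% and 49.4%. Between the ears the shares of the member sites ran from 13.3% to 44.4%, against 13.8% to 43.5% of all sites. These differences were not tested.

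Depth at member sites was not a fixed multiple of the depth elsewhere. The median over member sites was 44.5 reads (marrow) and 27 (ear) for animal 54, 169 and 127 for animal 108, and 58 and 44 for animal 136. Divided by the median at coding sites of the same list, this was 0.543 and 0.230, 1.76 and 1.35, and 0.753 and 0.846. These medians were above 1 in both tissues of animal 108 and below 1 in the other animals. They pool different sites in each list. At the sites shared by both tissues, animal 136 was above its coding medians too, by 1.25 (marrow) and 0.84 (ear) on the log2 scale. Animal 54 was above its coding median there in marrow (0.73) and below it in ear (-0.90). The median of all Gm11168 sites in the marrow of animal 108 was below its coding median (-0.61). On the log2 scale, marrow over ear averaged 0.48 ± 0.71 (SD, n = 3; p = 0.5, exact sign-flip permutation test), and the 2 tissues could not be separated.

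At the same positions in both tissues, the direction was shared within each animal and differed between animals. In animal 108 all 7 shared sites had fewer reads in marrow, at 0.393 to 0.477 of the ear depth (median 0.432), while coding medians of the 2 lists were nearly equal, with a ratio of 1.02. In animal 54 both shared sites had more reads in marrow, 1.92 and 2.66 times the ear depth, although its coding ratio was 0.698. In animal 136 all 4 had more, 1.92 to 2.25 times (median 2.02), beside a coding ratio of 1.48. After division by the coding median, the log2 ratio was 1.63 for animal 54, -1.31 for animal 108 and 0.41 for animal 136. The mean was 0.24 ± 1.48 (SD, n = 3; p = 0.75, exact sign-flip permutation test; a comparison chosen after seeing the data), so tissue had no common direction and the spread lay between animals. What sets the depth of a library at these positions was not tested.

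**Figure D3:**
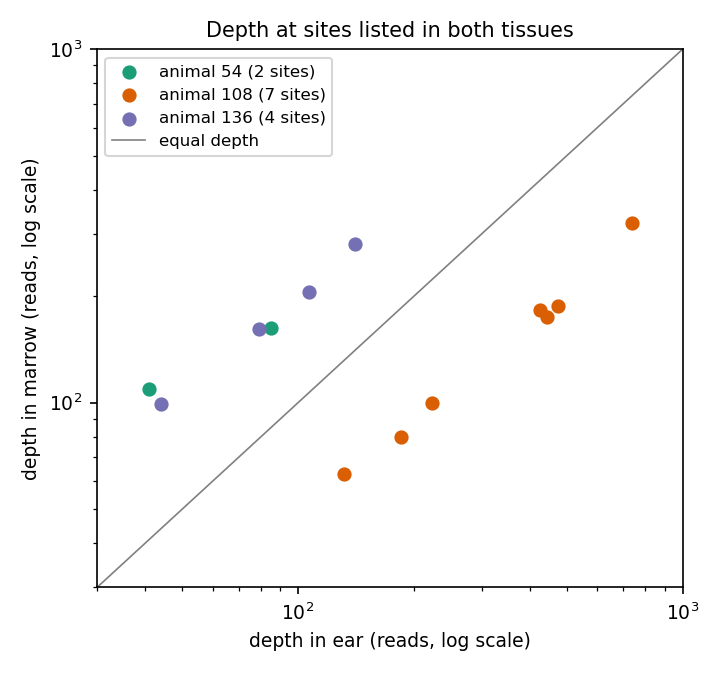
Each point is a member site listed in both tissues of 1 animal, with depth in ear on the horizontal axis and depth in marrow on the vertical axis, both in reads on log scales; the grey line marks equal depth. The 7 sites of animal 108 lie below the line, and the 2 of animal 54 and 4 of animal 136 lie above it.

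Reads counted by VarScan2, at other positions of the same stretch, gave a similar order. At its 16 calls in animal 108 marrow had fewer reads than ear at every one, with a median ratio of 0.495, against 1.23 over all its calls in that animal. At its 6 calls in animal 54 marrow had more reads at every one, with a median ratio of 1.87, against 0.508. At its 5 calls in animal 136 marrow had more reads at 3 and as many at 2, with a median of 1.32, against 1.14. The libraries are the same ones, so this is a second reading of them and not a replicate.

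Other predicted genes with low mapping quality were set beside the members. Gm10800 and Gm10801, which share their sites at 98662398 to 98667010 on chromosome 2, had 30 calls with mapping qualities of 3 to 11 and a fitted frequency of 1 throughout. Their depths ran from 11 to 5460 reads. Marrow had fewer reads than ear at 5 of 5 shared sites in animal 108 (median ratio 0.530), and more at the only shared site of animal 54 (1.51) and at 3 of 3 in animal 136 (1.71). All other sites of mapping quality under 10 had median ratios of 0.739, 0.587 and 1.33 in animals 54, 108 and 136. These ratios are not divided by the coding ratios, which were 0.698, 1.02 and 1.48.

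The remaining neighbours of the members on chromosome 9 looked the same. Gm26870, whose name covers the whole stretch, had 77 calls at 45 sites, including all 71 member calls. Gm10718 had 40 calls and Gm10719 had 39, of which 36 and 33 were member calls too. Gm10720 had 7 calls and Gm10721 had 6, of which 1 and 0 were. Gm10715 and Gm17535 had 6 each, all of them calls of Gm10717 as well. Median mapping quality was 2 or 3 in each of these genes, and every call was fitted at a frequency of 1.

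Among 272 further genes with at least 5 sites in each list, 3 came nearest to the members in relative depth over the 6 lists. These were Eif2d, a translation initiation factor, Gm21738 and Gm9733, with root mean square differences of 0.77, 0.81 and 0.85 on the log2 scale. Only Gm21738, on chromosome 14, was like the members in what the choice did not use. Its 84 calls had a median mapping quality of 2 and a median variant fraction of 96.8%, and all 84 were fitted at 1. Eif2d and Gm9733 had median mapping qualities of 42 and 41, and none of their calls was fitted at 1.

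The comparison of marrow with ear in variant fraction gave no call at member sites listed in both tissues. The rule for the sites does not use this difference, but the somatic lists compare the same tissues, so the test is not known to be independent of how the genes were chosen. Of the sites listed in both tissues with at least 10 reads in each, 13 tests fell on members, 2 in animal 54, 7 in animal 108 and 4 in animal 136. None passed Fisher's exact test with Benjamini-Hochberg adjustment over all sites of the animal. All 13 had a variant fraction of at least 86.4% in both tissues. A site with a lower fraction in 1 tissue may be missing from that tissue's list. Large differences could therefore hardly enter these tests, nor the medians over shared sites below. Among all sites tested 0.0312% passed in animal 54, 0.0339% in animal 108 and 0.0205% in animal 136. At an unadjusted p under 0.05 there was 1 member test, against 8.67%, 7.66% and 6.62% of all tests. It was 3024566 in animal 108, with 269 of 304 variant reads in marrow and 650 of 702 in ear (exact p = 0.0379, adjusted p = 0.609). The median fraction over shared sites was 93.1% for both tissues of animal 54, 95.4% (marrow) and 94.3% (ear) for animal 108, and 95.6% and 94.9% for animal 136. The mean difference was 0.65 ± 0.53 percentage points, higher in marrow in 3 of 3 animals (SD, n = 3; p = 0.25, exact sign-flip permutation test). Taken alone, Gm11168 was higher in 3 of 3 animals. Gm10717 was higher in 1 of 3, with differences of -0.23, 2.68 and -0.13 points in animals 54, 108 and 136 (p = 1, same exact test). Over all member sites of each list, shared or not, marrow was lower instead, with a mean difference of -1.59 points (p = 0.25, same exact test).

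VarScan2, which compares the read counts of marrow and ear at each site, gave 27 single nucleotide calls at the members. There were 6 in animal 54, 16 in animal 108 and 5 in animal 136, of 1030, 1587 and 525 calls in all. Gm11168 had 12 and Gm10717 had 15. No position was called in more than 1 animal, where 1.13% of all its single nucleotide positions were, and VarScan2 called no insertion or deletion there. In 13 calls the change was missense in a member transcript, in 1 synonymous and in 13 upstream or downstream. Of the 27 calls, 2 had their site in any list of all variants, both in marrow lists, against 57.5% of all VarScan2 single nucleotide calls. They were 3023631 in animal 108 and 3004472, the p.Asn6His site, in animal 136.

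VarScan2 marked 17 of these calls as somatic and 10 as loss of heterozygosity (LOH), its name for a site that is mixed in the reference tissue and pure in the other. LOH made up 37.0% of the member calls, against 14.2% of all its single nucleotide calls. By animal this was 1 of 6 in animal 54 against 21.9%, 7 of 16 in animal 108 against 10.2%, and 2 of 5 in animal 136 against 11.2%. The higher share thus came from animals 108 and 136. In all 10 the variant fraction was higher in marrow, as in 99.8% of all LOH calls.

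The LOH calls were mixed in ear and mostly variant in marrow. Their marrow fractions lay between 80.6% and 100%, with a median of 90.3%, and their ear fractions between 37.5% and 75.3%, with a median of 68.5%. The deepest was at 3032579 in animal 108, a missense change p.His221Gln of Gm10717 with 54 of 67 variant reads in marrow and 88 of 130 in ear. At 3004509, p.Ile18Thr of Gm11168 in the same animal, the counts were 52 of 63 and 92 of 132. At 3029544, p.Pro116Ser, they were 12 of 14 and 6 of 16, the lowest ear fraction of the 10. At the p.Asn6His site in animal 136 all 13 marrow reads and 9 of 13 ear reads had the variant. The 95% Clopper-Pearson interval of the marrow fraction there, 75.3 to 100, overlapped that of the ear, 38.6 to 90.9.

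Most of the somatic calls rested on few reads. Marrow fractions lay between 20% and 50.0%, with a median of 33.3%, and ear fractions between 0% and 19.7%, with a median of 2.94%. In 6 of the 17 the ear had no variant read, and in 10 the marrow's variant reads lay on 1 strand only. Neither share was computed over all somatic calls of VarScan2, so these counts are not set apart from the rest. In animal 108, 4 calls between 3004069 and 3004099 in Gm11168 each had 4 forward variant reads in marrow, of 12 to 17, and 1 in ear. They give p.Phe104Leu, p.Ala109Thr, p.Ala109Asp and p.Leu114Ile. Whether they lie on the same 4 reads cannot be told from the counts. A second group in Gm10717 at 3029499 and 3029512, p.His101Tyr and p.Cys105Ser, had 5 of 16 and 4 of 15 variant reads in marrow.

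The better covered somatic calls kept variant reads in the ear. At 3022168 in animal 54, upstream of Gm10717, 46 of 138 marrow reads and 12 of 61 ear reads had the variant. At 3000038 in animal 136, upstream of Gm11168, it was 41 of 117 and 8 of 59, all on the forward strand. At 3006755 in animal 54, downstream of Gm11168, it was 17 of 46 and 1 of 25. At 3022511 in animal 136, upstream of Gm10717, it was 9 of 45 and 1 of 34. The call at 3006755 had the lowest p-value of the 27 in the authors' deposited table, 0.0015. The p-values in the authors' deposited table ran from there to 0.0484, with a median of 0.0231. Of the 27 p-values, 8 were under 0.01 in the authors' deposited table, or 29.6%, against 35.4% of all its single nucleotide calls.

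**Figure D4:**
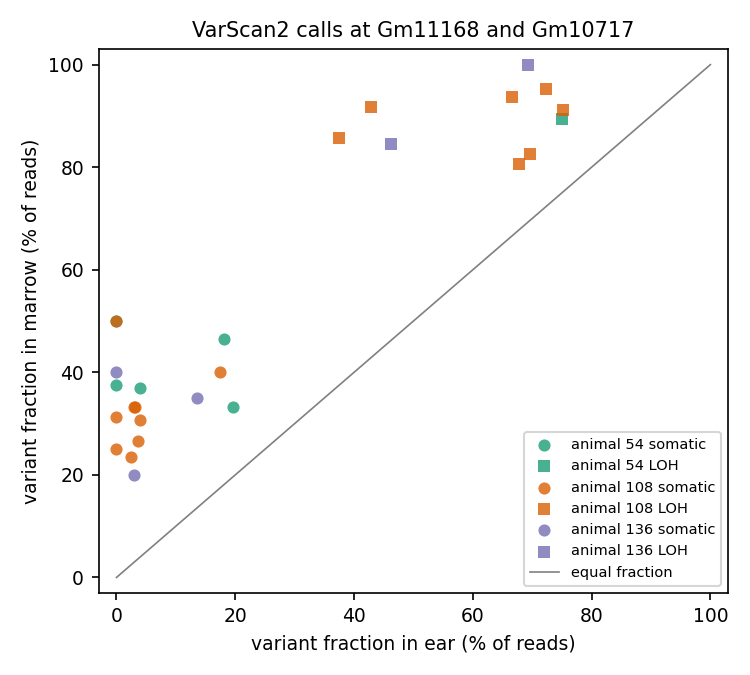
Each point is 1 of 27 VarScan2 calls, with the variant fraction in ear on the horizontal axis and in marrow on the vertical axis, both in percent of reads; circles are somatic calls, squares are LOH calls, colours are animals and the grey line marks equal fractions. Somatic calls lie at 20% to 50.0% in marrow and at up to 19.7% in ear, and LOH calls lie at 80.6% or above in marrow.

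The same coding change appeared at 2 positions. An A-to-T change read as p.Thr56Ser was called at 3003515 as LOH in animal 136 and at 3004626 as somatic in animal 54. The first lies in transcript ENSMUST00000177722 of Gm11168 and the other in ENSMUST00000178348. The change at 3004626 was also read as p.Thr135Ser in Gm11168, so the match depends on the transcript taken. Strelka, the other somatic caller, listed no call at either gene, none at the neighbouring genes named above and none between the first and last member position. Its lists held 2854, 1480 and 2078 single nucleotide calls and 79, 52 and 60 insertions or deletions in animals 54, 108 and 136.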

How the data were processed

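Exome DNA of marrow and ear from 3 mice (6 samples) was analysed. Per the file headers, the lists of all variants come from SAMtools and their annotation from SnpEff; the submitters' processing notes also name FastQC and Bowtie2, and GRCm38 and mm9 without roles. Of 17914 coding sites with a RefSeq gene, 99.2% lay inside that gene's span in GRCm38.p6; positions are printed as the files give them. The deposited counts are reads per allele and strand. The authors' VarScan2 tables give read counts, a somatic p-value and fractions as percent. For the callers' filters, the settings were not given in the sources used here. Samples were grouped by the labelled tissue.

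The variant fraction, shares with 95% Clopper-Pearson intervals, exact sign-flip tests over animals and two-sided Fisher's exact tests (at least 10 reads in each tissue, Benjamini-Hochberg threshold 0.05) were computed with Python 3.11.15, NumPy 2.4.6 and SciPy 1.17.1. The Fisher step was tested on simulated reads, with 200 sites of intermediate fraction in each animal shifted by 0.4. The member sites tested had higher fractions, so the simulation does not show what the step can find there. The labels tie each marrow to the ear of its own animal, and tests of tissue were paired by animal. Across 4264 sites in all lists, marrow and ear deviations from the tissue mean correlated at 0.118, 0.161 and 0.100 in animals 54, 108 and 136. VarScan2 columns were checked against the lists: the column taken as marrow had the nearer fraction at 441 of 441, 979 of 979 and 263 of 263 sites, and the ear column at 256 of 277, 314 of 341 and 60 of 71. Members and lists were chosen with earlier results of these data known. The genes named are the 2 members, a list of neighbouring or similar predicted genes, and the 3 genes nearest in relative depth.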

Additional observations from a re-analysis of the deposited data

How the results depend on the processing

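Alternatives were annotation by first gene only, single nucleotide sites only, a depth of at least 20, a mapping quality of at least 30, no scaling by the library, all member sites of each list, 20 reads or both strands in the per-site test, a lower p-value or more reads for VarScan2, a higher Strelka quality, and each animal left out; sites in both tissues was added after seeing the data. Of 47 recomputed values, 42 did not reverse, cross a threshold or move by more than their interval or 1.5 times a count. Among these, the mapping quality difference was 0 at a depth of at least 20. The share in every list was 9.09% without animal 54 against 5.13%, inside its 95% Clopper-Pearson interval (0.627 to 17.3). That interval treats the sites as independent, which neighbouring sites need not be, so it may be too narrow. The variant fraction difference reversed to -1.59 points over all member sites of each list (p = 0.25, exact test). Leaving out each animal moved the mapping quality difference from -1 to 0.75 (reversed without animal 54), the log2 ratio of site numbers from 0.37 to 0.78, that of relative depth from 0.11 to 0.81, the fraction difference from 0.42 to 0.94 points, and the share in every list from 6.67% to 9.09%. With an animal left out, every list means those of the remaining animals, and the sites number 28 to 33 in place of 39. Such a share is easier to reach than that over all 6 lists. The 27 VarScan2 calls fell to 8 at a p-value under 0.01 and to 12 with at least 20 reads in both tissues, and ranged from 11 (without animal 108) to 22 with an animal left out. The cause of these changes was not tested, beyond the fewer calls or animals that each alternative keeps. A mapping quality of at least 30 left no member site, so 6 results have no value there. Without the pairing by animal (no replicate block), the differences were the same, 0.52 for site numbers, 0.48 for relative depth, -0.33 for mapping quality and 0.65 points for fraction, and the exact permutation p-values were 0.3, 0.7, 1 and 0.5, where 3 against 3 allows no p under 0.1. Depth limits single sites: a list gives no reads where nothing was called.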
